A study of Mus musculus with 12 samples.

Results

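Tight junction RNAs were followed in mouse mammary epithelium through 9 genes: the claudins Cldn1, Cldn3, Cldn4 and Cldn7, occludin (Ocln), tricellulin (Marveld2), the adhesion receptor JAM-A (F11r), the scaffold ZO-1 (Tjp1) and the claudin-binding adhesion molecule Epcam. They were taken by symbol from the 27179 genes of the count table, each matched 1 row, and all 9 passed the filter on low counts. The 12 libraries came from basal and luminal epithelial cells of female mice, with 3 biological replicates in each of 4 groups. Controls carried the floxed alleles alone (strain Foxp1(fl/fl)), and the knockouts added a Cre transgene (strain MMTV-cre/Foxp1(fl/fl)), so floxed Foxp1 was common to every library. No treatment is named in the labels, and an age is given in none of the sources used here. The MMTV promoter is active in several secretory epithelia and Cre from it can act in only some of the cells, which limits the knockout as a model. Foxp1 itself was counted at 160 to 221 CPM (read counts scaled to library size with TMM factors) in basal controls and 193 to 284 CPM in basal knockouts, and at 62.0 to 82.3 CPM and 150 to 161 CPM in the luminal groups. A count over the whole gene includes exons outside the deleted part, so it does not show whether the deletion took place. In luminal cells it went against the label (log2 fold 1.07, adjusted p = 0.0161 in edgeR's quasi-likelihood test). In basal cells the ranges overlapped and no difference was called (0.22, adjusted p = 0.926 in the same test). The libraries are therefore called knockout-labelled, and every direction between genotypes rests on the labels.

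Tight junctions close the space between neighbouring epithelial cells near their apical side. Claudins polymerise into the sealing strands, occludin and tricellulin join the strands along the cell border and at the corners where 3 cells meet, JAM-A takes part in their assembly, and ZO-1 ties them to actin. EpCAM is not a strand protein, but it binds claudin-7 and protects claudins from degradation. In the mammary gland the luminal cells line the ducts and carry the junctions that close off the milk space, while the contractile basal cells lie outside them on the basement membrane.

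The labelled cell types were checked on their markers. All 12 basal markers were lower in luminal than in basal controls and 14 of 16 luminal markers were higher, none in the other direction. The summed luminal list stood at 803 to 1144 CPM in basal controls and 11025 to 17418 CPM in luminal controls, and the summed basal list at 207 to 814 CPM in luminal controls. Libraries held 9769361 to 11133908 counts, except luminal knockout-labelled replicate 3 with 15449513. The summed list of 11 salivary secretory transcripts was 11431 to 123551 CPM in luminal controls and 21486 to 90119 CPM in luminal knockout-labelled libraries. It was lower in the basal libraries, at 1016 to 4210 CPM in controls and 194 to 4960 CPM in knockout-labelled ones. Every member call below was the same with these genes removed before scaling, which tests their effect on the scaling only. The part of salivary RNA in the member values was not tested.

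The promoters are shown for Cldn3, which differed most between the cell types, for Cldn4, the most abundant claudin, which lies next to Cldn3 on chromosome 5, for Epcam with its smaller difference, and for F11r, which was not called different. Each line gives the 250 bases before the RefSeq transcription start on GRCm38.p6, 5′ to 3′ on the gene's strand. Capitals mark the E-box CACCTG, the site that repressors of the Snail and Zeb families bind, and the GC box GGGCGG, each on either strand.
Cldn3: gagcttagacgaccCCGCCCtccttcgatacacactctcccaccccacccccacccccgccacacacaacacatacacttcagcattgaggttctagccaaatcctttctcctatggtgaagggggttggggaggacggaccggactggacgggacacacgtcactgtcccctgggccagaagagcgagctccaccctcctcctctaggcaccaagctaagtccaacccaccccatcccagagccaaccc
Cldn4: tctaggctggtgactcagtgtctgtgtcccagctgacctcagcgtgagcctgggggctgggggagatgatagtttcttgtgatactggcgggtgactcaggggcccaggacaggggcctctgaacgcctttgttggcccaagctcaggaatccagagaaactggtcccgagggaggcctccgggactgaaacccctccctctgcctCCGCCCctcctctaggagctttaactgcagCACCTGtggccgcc
Epcam: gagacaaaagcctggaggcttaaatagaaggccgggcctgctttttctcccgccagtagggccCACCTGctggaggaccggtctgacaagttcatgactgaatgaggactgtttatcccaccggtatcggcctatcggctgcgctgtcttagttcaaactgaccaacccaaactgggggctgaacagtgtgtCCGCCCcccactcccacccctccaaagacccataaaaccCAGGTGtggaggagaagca
F11r: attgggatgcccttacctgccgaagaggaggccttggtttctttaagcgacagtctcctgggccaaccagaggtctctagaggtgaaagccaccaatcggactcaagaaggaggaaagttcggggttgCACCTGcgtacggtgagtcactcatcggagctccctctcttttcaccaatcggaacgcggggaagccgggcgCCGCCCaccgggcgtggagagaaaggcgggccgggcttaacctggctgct
These stretches lie at chr5:134985964-134986213 (plus strand), chr5:134946935-134947184 (minus strand), chr17:87635729-87635978 (plus strand) and chr1:171437311-171437560 (plus strand). The Cldn3 stretch held a GC box and no E-box. The Cldn4 stretch held 1 E-box, starting at position -14 from the transcription start, and 1 GC box at position -44. The F11r stretch also held 1 E-box, at position -122, and Epcam held 2. Among the other members, an E-box was found in a second RefSeq window of Cldn7 and of Ocln and in no window of Cldn1, Marveld2 or Tjp1. The second window lies inside the gene span for Cldn7 (chr11:69965171-69965420) and mostly inside it for Ocln (chr13:100552499-100552748). The first window of each of these genes held no E-box. The Tjp1 window (chr7:65371245-65371494) also lies inside the gene span, and the bases after its start matched none of the gene's transcripts checked. Its start is therefore less sure than those of the other windows, which all matched. The palindrome AACCGGTT, the consensus of Grainyhead-like factors, was in no member window. Of all 32851 RefSeq windows of the same length, 17.2% held the E-box, 0.116% the Grainyhead-like site and 32.7% the GC box. The E-box was thus present in genes with and without a difference between the cell types, and a match of letters is a description of the sequence only.

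Luminal and basal controls were compared first, which asks how the junction genes are divided between the layers. The 4 claudins, occludin, tricellulin and Epcam were all higher in luminal cells, from 2.77-fold for Epcam to 34.0-fold for Cldn3 in the fit, while F11r and Tjp1 were at like levels in both. In edgeR's quasi-likelihood test with Benjamini-Hochberg adjustment over 14903 genes, 7 of the 9 genes were called higher at an adjusted p under 0.05, where 16.3% of all tested genes were called higher and 33.2% were called in either direction. Other adjusted p-values in the text are also of this test, except where DESeq2 or the replicate block is named. The luminal and basal controls did not overlap for 7 of the 9 genes, all higher, which held for 22.9% of all tested genes. The median log2 fold of the 9 genes was 3.04, beside 0.04 over all tested genes. In bulk RNA, fewer cells of a type and less RNA per cell cannot be told apart.

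**Figure D1:**
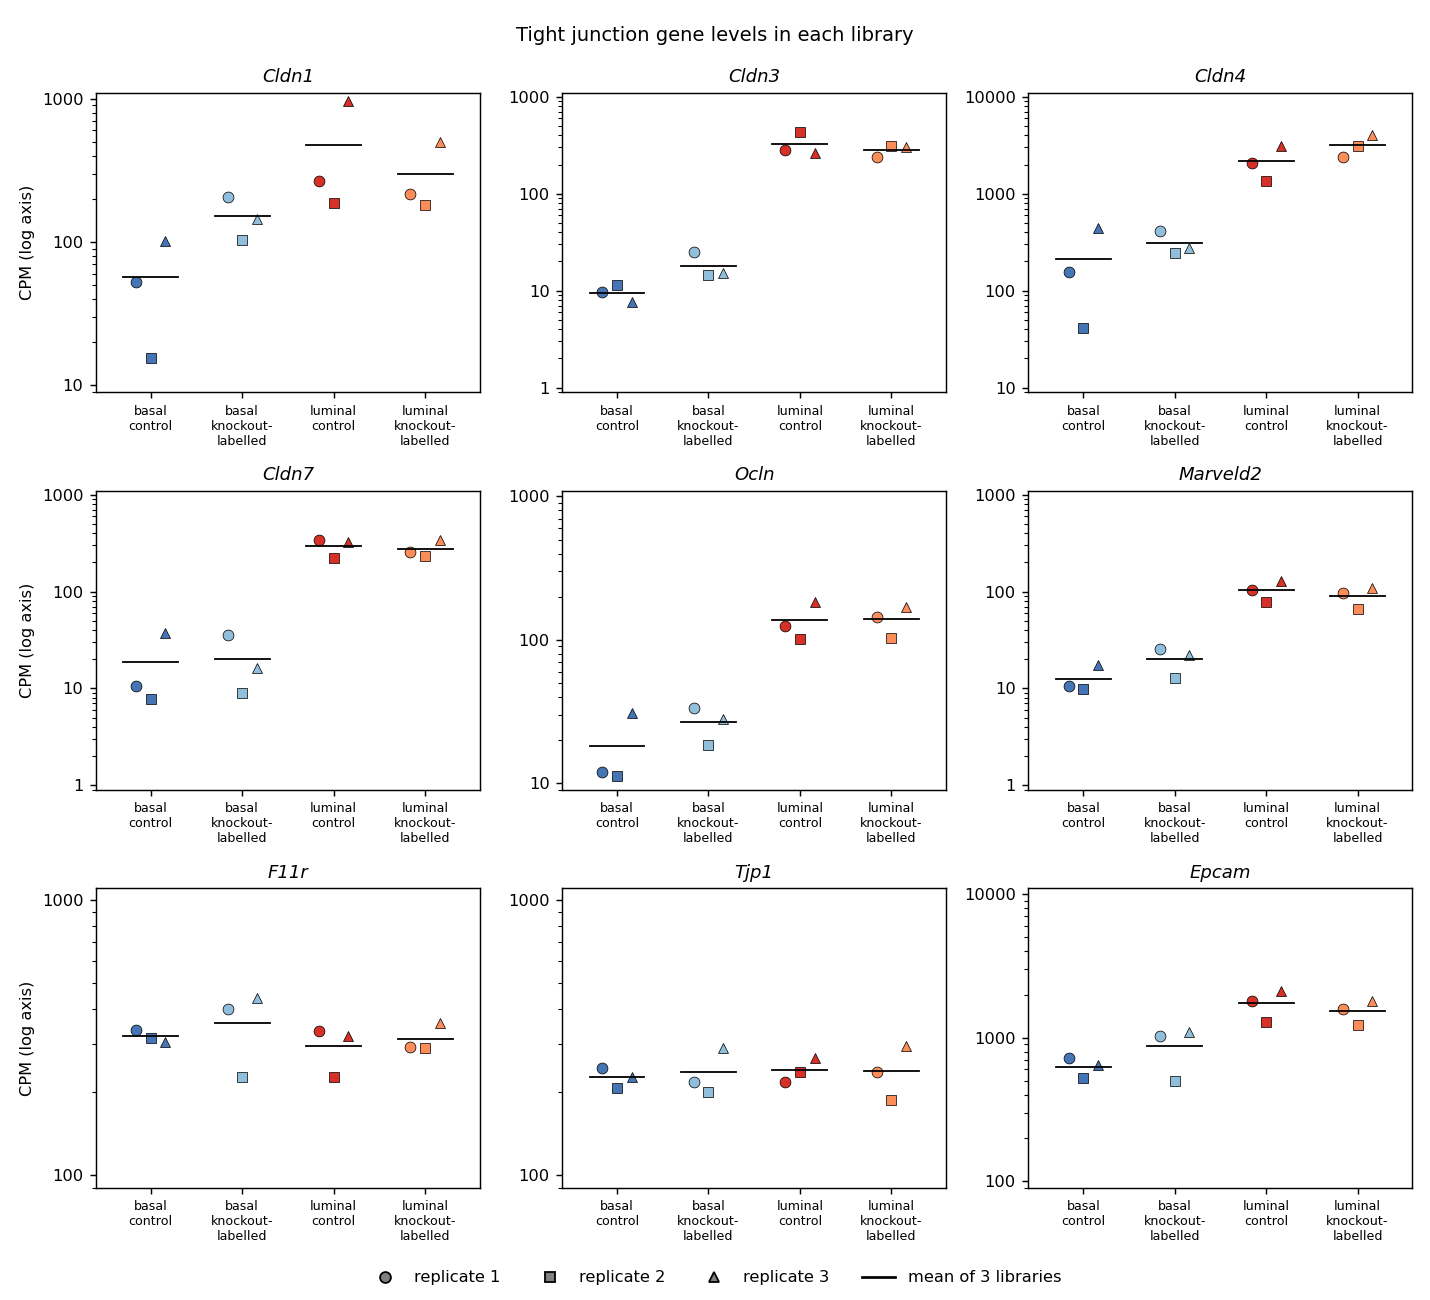
CPM of each of the 9 genes in each library on log axes, with basal groups in blue, luminal groups in red and orange, symbols for the replicate number and bars for the mean of 3 libraries. Cldn3 sits between 7.57 and 24.8 CPM in the 6 basal libraries and between 237 and 429.7 CPM in the 6 luminal libraries, whereas the basal and luminal ranges of F11r and Tjp1 overlap.

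Cldn3 (Entrez 12739, chromosome 5, 134986214 to 134987476 on GRCm38), a sealing claudin of simple epithelia, gave the widest separation. It stood at 9.75, 11.3 and 7.57 CPM in basal controls 1, 2 and 3, and at 283, 429.7 and 262 CPM in the luminal controls. The lowest luminal library was far above the highest basal one. The log2 fold was 5.09 (SE 0.31, adjusted p = 1.91e-06). The end of Cldn3 shares 44 bases with Wbscr25, a long non-coding RNA, and the kit does not mark strand. Wbscr25 had at most 26 counts in any library, beside 82 to 127 Cldn3 counts in the basal controls.

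Cldn7 (Entrez 53624, chromosome 11, 69964779 to 69967886), the claudin that EpCAM binds, stood at 10.6, 7.77 and 37.4 CPM in basal controls and at 336, 219.6 and 321 CPM in luminal controls. Basal replicate 3 was well above the other basal controls, and still below every luminal control. The log2 fold was 3.97 (SE 0.63, adjusted p = 0.000621), and 4.995 without basal control replicate 3.

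Cldn4 (Entrez 12740, chromosome 5, 134945123 to 134946934), a claudin known for tightening the barrier to sodium, was the most abundant claudin in both layers. Its levels were 157, 40.7 and 439 CPM in basal controls and 2071, 1340.5 and 3077 CPM in luminal controls. Basal replicate 3 was the highest and replicate 2 the lowest of the basal libraries, and no basal library reached the luminal range. The log2 fold was 3.35 (SE 0.69, adjusted p = 0.00329), and 4.45 without basal control replicate 3.

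Cldn1 (Entrez 12737, chromosome 16, 26356645 to 26371839), a sealing claudin that the epidermal barrier needs, had the largest standard error of the 9 genes in this comparison. It stood at 52.7, 15.5 and 102 CPM in basal controls and at 267, 188 and 963 CPM in luminal controls. Replicate 3 was the highest in both cell types. The log2 fold was 3.06 (SE 0.76, adjusted p = 0.00958), with 1.96 (adjusted p = 0.046) without luminal control replicate 3 and 3.80 without basal control replicate 3.

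Occludin and tricellulin, the tetraspan MARVEL proteins of the strands, followed the claudins at lower levels. Ocln (Entrez 18260, chromosome 13, 100496504 to 100552718) stood at 12.03, 11.2 and 31.1 CPM in basal controls and at 125, 101.1 and 184 CPM in luminal controls, and its log2 fold was 2.91 (SE 0.42, adjusted p = 0.000322). Marveld2 (Entrez 218518, chromosome 13, 100595957 to 100616971) stood at 10.6, 9.83 and 17.3 CPM in basal controls and at 104, 77.3 and 129 CPM in luminal controls, and its log2 fold was 3.04 (SE 0.34, adjusted p = 5.12e-05). Both genes were highest in replicate 3 of each cell type, and luminal and basal libraries were well apart. Without basal control replicate 3 the Ocln log2 fold was 3.56. The annotation places a small RNA inside each gene, LOC115488221 in Ocln and Gm24261 in Marveld2, and neither has a row in the count table.

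JAM-A and ZO-1 did not follow this division. F11r (Entrez 16456, chromosome 1, 171437561 to 171464593) stood at 337, 315 and 304 CPM in basal controls and at 334, 227 and 319.7 CPM in luminal controls. Tjp1 (Entrez 21872, chromosome 7, 65296165 to 65527850) stood at 246, 207 and 227 CPM in basal controls and at 217, 237 and 267 CPM in luminal controls. The basal and luminal ranges overlapped for both genes. The log2 folds were -0.12 for F11r (95% interval -0.65 to 0.42, adjusted p = 0.743) and 0.09 for Tjp1 (-0.35 to 0.53, adjusted p = 0.776), so differences as large as those of the 7 other genes lay outside both intervals.

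Epcam (Entrez 17075, chromosome 17, 87635979 to 87651127) lay between these patterns. It stood at 718, 521 and 648 CPM in basal controls and at 1805, 1291 and 2130.1 CPM in luminal controls. The groups did not overlap, and the log2 fold was 1.47 (SE 0.32, adjusted p = 0.00458).

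**Figure D2:**
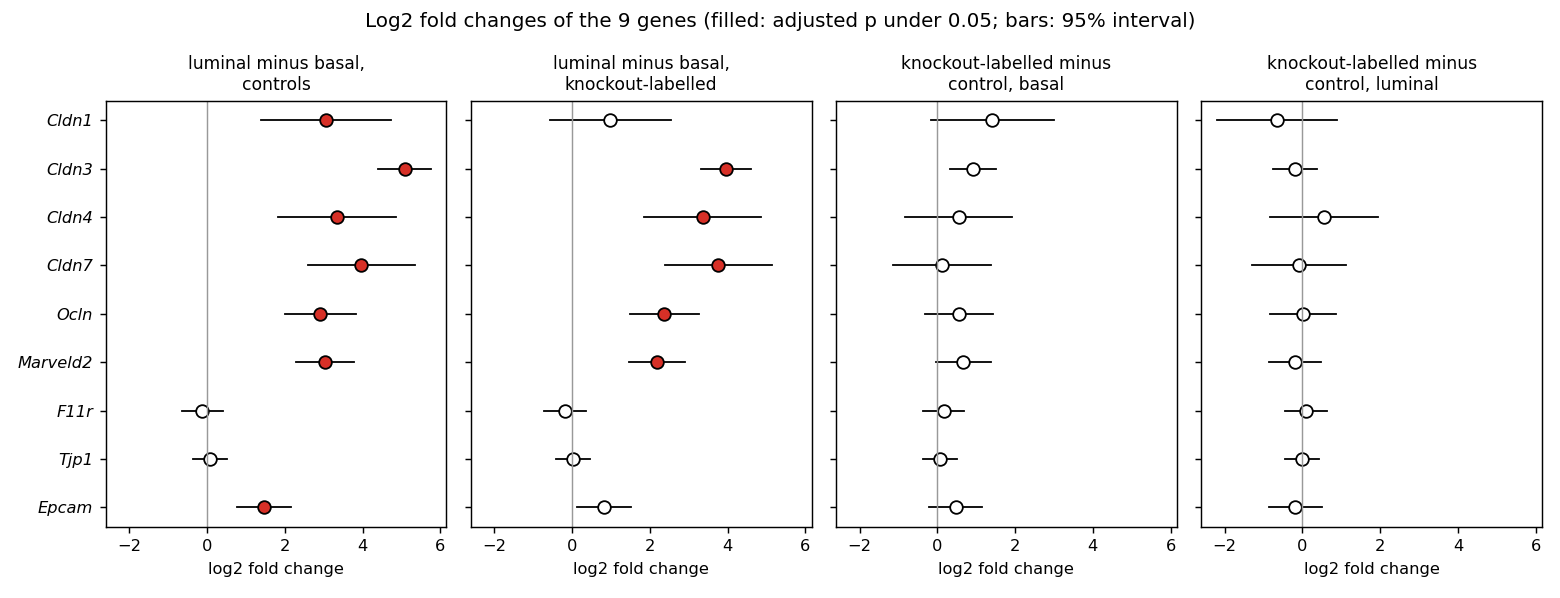
Log2 fold changes of the 9 genes in 4 comparisons, with 95% intervals and filled points at an adjusted p under 0.05. Filled points are at the 7 genes higher in luminal controls and at 5 genes in the knockout-labelled libraries, and there are none in either comparison between genotypes.

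The division between the layers was graded. The mean basal level in controls was 2.94% of the luminal level for Cldn3, 6.36% for Cldn7, 9.82% for Cldn4, 12.01% for Cldn1, 12.1% for Marveld2, 13.2% for Ocln, 36.1% for Epcam, 94.2% for Tjp1 and 109% for F11r. The 16 luminal marker genes gave basal levels of 1.81% to 62.1% of the luminal level by the same measure, with a median of 4.67%. Cldn3 thus lay within the lower markers, and the other claudins, Ocln and Marveld2 lay above the marker median. How far luminal RNA in the basal libraries contributes to the basal levels was not tested.

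**Figure D3:**
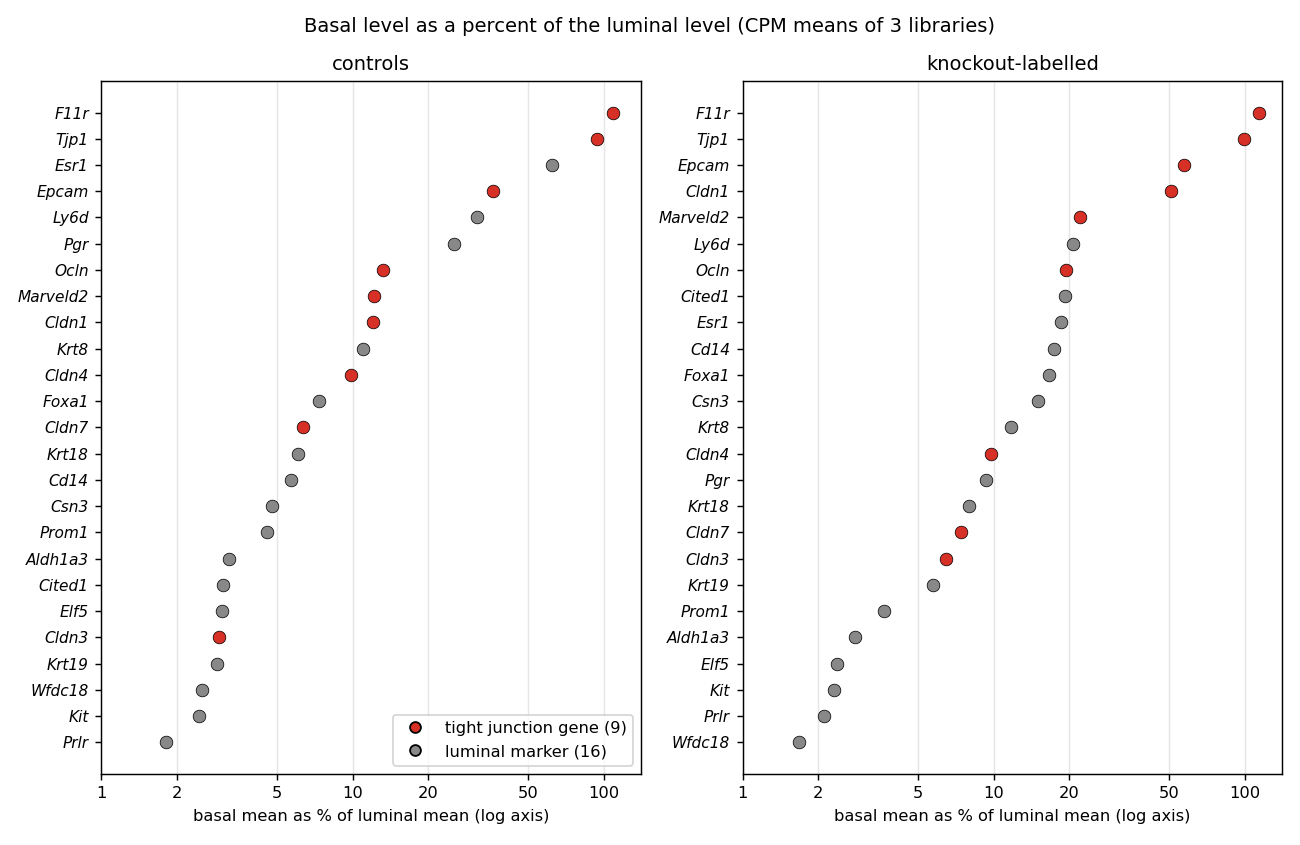
Mean basal CPM as a percent of mean luminal CPM (log axis) for the 9 tight junction genes in red and 16 luminal marker genes in grey, in controls and in knockout-labelled libraries. In controls the red points run from 2.94% for Cldn3 to 109% for F11r, and in knockout-labelled libraries from 6.43% to 114%.

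Basal control replicate 3 was the highest basal control for Cldn1, Cldn4, Cldn7, Ocln and Marveld2, and the lowest for Cldn3 and F11r. The 9 genes therefore did not vary together as 1 block inside a group. The summed luminal marker list was 1074, 803 and 1144 CPM in basal controls 1, 2 and 3, but its markers did not move together. Krt8, the largest part of the sum, was lowest in replicate 3 (605, 500 and 428 CPM). Krt18, Krt19, Elf5, Aldh1a3, Esr1, Foxa1, Cd14, Prom1 and Ly6d were highest in replicate 3, with Ly6d at 39.2, 6.70 and 186 CPM. Kit, Csn3, Wfdc18, Prlr, Pgr and Cited1 were not. The part of luminal RNA in the high replicate 3 values was not tested.

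Levels of different genes were compared per length, as RPKM (CPM per kilobase of the gene length in the deposited table). In luminal controls Cldn4 (1194 ± 481 RPKM, SD, n = 3) and Epcam (845 ± 205) were the highest and their ranges overlapped. Cldn3 (257 ± 72.3), Cldn7 (201 ± 43.5), Cldn1 (146 ± 132) and F11r (118 ± 23.6) came next, each overlapping its neighbour in this order. Ocln (42.8 ± 13.3), Tjp1 (33.8 ± 3.51) and Marveld2 (30.6 ± 7.66) formed the lowest run and also overlapped. In basal controls Epcam (305 ± 48.3 RPKM) was alone at the top, above F11r (128 ± 6.69) and Cldn4 (117 ± 113). Tjp1 (31.8 ± 2.70), Cldn1 (17.5 ± 13.4), Cldn7 (12.8 ± 11.3), Cldn3 (7.57 ± 1.499), Ocln (5.67 ± 3.54) and Marveld2 (3.71 ± 1.21) followed, each overlapping the next. Cldn3 was thus in the third place in luminal and in the seventh place in basal controls, and F11r in the sixth and in the second.

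Of the summed RPKM of 24 claudin genes in the table, Cldn4 made up 57.1% ± 18.8 (SD, n = 3) in basal controls, 61.9% ± 1.43 in basal knockout-labelled, 62.4% ± 6.79 in luminal controls and 75.0% ± 2.31 in luminal knockout-labelled libraries. Cldn3 and Cldn7 were the next claudins in luminal controls (15.4% ± 8.77 and 11.03% ± 2.13). In basal controls Cldn1 (9.60% ± 1.94) and Cldn12 (9.57% ± 6.64) were next, with Cldn3 at 7.28% ± 6.54 and Cldn7 at 7.20% ± 1.796. Cldn12, which unlike most claudins does not bind ZO-1, stood at like CPM in both layers (46.3 ± 3.59 and 42.7 ± 22.3 CPM; log2 fold -0.12, SE 0.34, adjusted p = 0.822).

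The other tight junction genes of a list of 52 were read next, of which 51 are in the table and 41 passed the filter. In the controls 16 were higher and 8 lower on the luminal side, where 16.3% of all tested genes were called higher and 16.8% lower. The count of lower genes is thus near the background. The median log2 fold over the 41 was 0.22. Claudins and the proteins of tricellular contacts were mostly on the luminal side: 5 of 9 other claudins and 3 of 4 tricellular genes were called higher and 0 lower. With replicate number as a block, where 43.8% of all genes were called, 28 of the 41 passed, with Cldn2 added as higher (log2 fold 2.61, adjusted p = 0.0288) and Cldn15 (-1.11, adjusted p = 0.0357), Esam (-1.03, adjusted p = 0.00495) and Ybx3 (-0.58, adjusted p = 0.0149) as lower. The Cldn15 call is the exception to the luminal side among the claudins. The Cldn2 fold rests on 2, 1 and 2 counts in basal controls and 16, 13 and 4 counts in luminal controls. Without the block the calls were led by Cldn8 (log2 fold 4.38, SE 0.51, adjusted p = 6.9e-05), Cldn6 (3.91, SE 0.48), Cldn22 (3.75, SE 1.01) and Cldn10 (3.68, SE 0.40). The Cldn22 call was lost without basal control replicate 1 (adjusted p = 0.0647) or luminal control replicate 1 (0.065), and with limma-voom (0.0651). Cldn22 stood at 22.2, 1.85 and 10.3 CPM in luminal controls 1, 2 and 3, and at 0.41, 1.07 and 1.02 CPM in basal controls. The summed salivary list was 123551, 11431 and 71684 CPM in the same luminal controls. The part of salivary RNA in the Cldn22 values was not tested. Ildr1, a receptor that places tricellulin at cell corners, gave 1.18 on the same scale (SE 0.19, adjusted p = 0.00067).

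The scaffolds and polarity genes were divided between the layers. Among 14 scaffolds 4 were higher and 4 lower in luminal controls, beside 16.3% and 16.8% of all tested genes. Tjp3, the ZO-3 scaffold, averaged 5.23 ± 3.07 CPM in basal controls and 125 ± 68.3 CPM in their luminal counterparts (log2 fold 4.57, SE 0.55, adjusted p = 9.29e-05). Cingulin (Cgn), which links the junction to actomyosin, gave 3.66 (SE 0.63, adjusted p = 0.00108), and 5.16 without basal control replicate 3. The PDZ scaffold Mpdz went the other way, from 138 ± 44.6 CPM in basal to 21.0 ± 7.10 CPM in luminal cells (log2 fold -2.71, SE 0.33, adjusted p = 0.0001).

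Members of 1 family were higher in opposite layers in 2 cases. Igsf5, JAM-4, was on the luminal side (log2 fold 5.46, SE 0.47, adjusted p = 1.12e-05), with 2 to 3 counts in each basal control, whereas Jam2 (-1.74, SE 0.33, adjusted p = 0.00193) and Jam3 (-2.13, SE 0.41, adjusted p = 0.00207) were higher in basal controls. Of the Par6 polarity adaptors, Pard6b was higher in luminal controls (2.38, SE 0.27, adjusted p = 5.83e-05) and Pard6g was higher in basal controls (-3.03, SE 0.31, adjusted p = 3.24e-05). Crb3, the Crumbs protein of apical membranes, was also higher in luminal controls (2.58, SE 0.37, adjusted p = 0.000339).

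**Figure D4:**
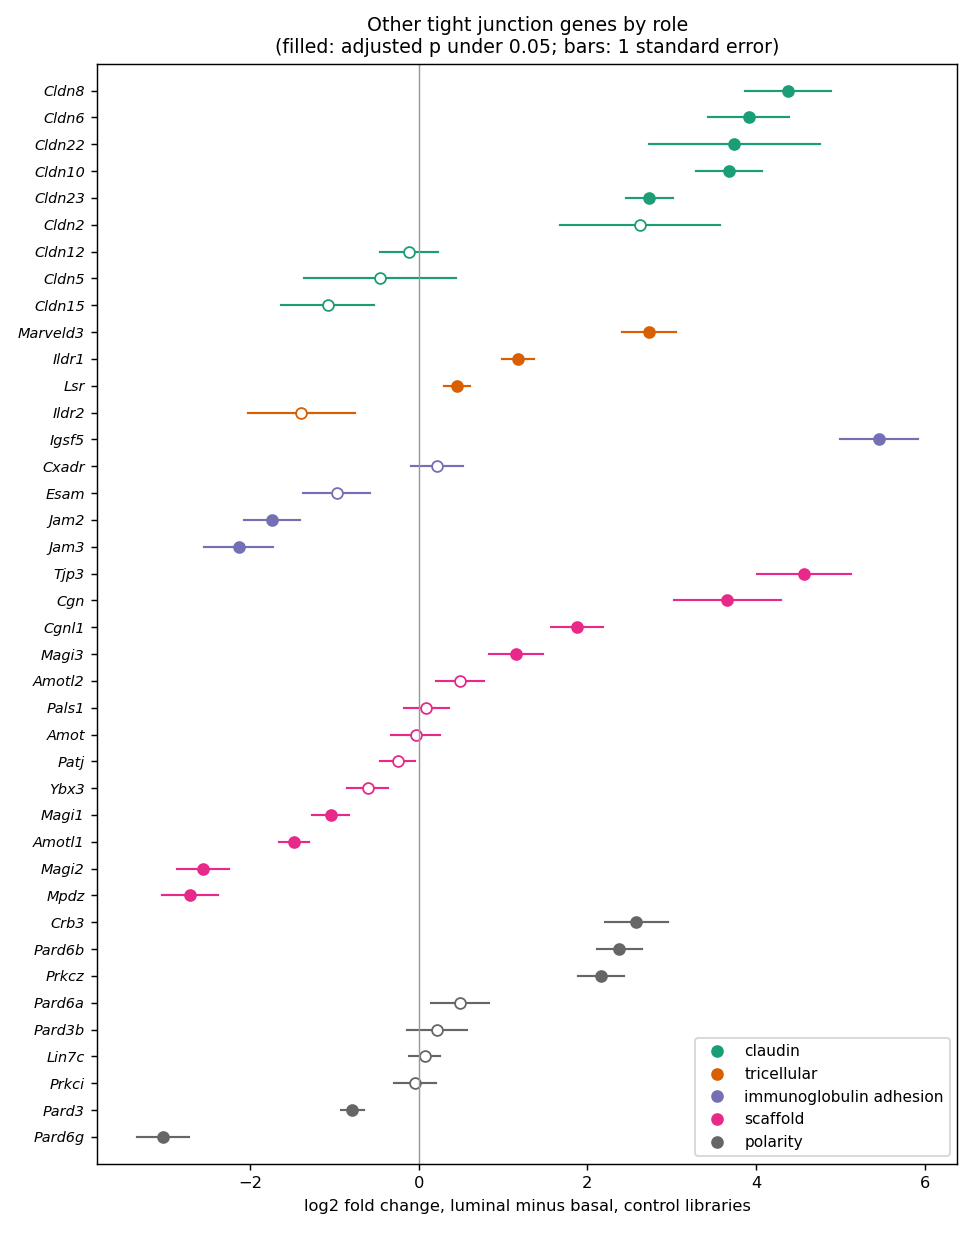
Log2 fold changes between luminal and basal controls for 40 other tight junction genes tested, coloured by role, with bars of 1 standard error and filled points at an adjusted p under 0.05. Filled claudins and tricellular genes all lie on the luminal side, and scaffolds, immunoglobulin-type adhesion genes and polarity genes lie on both sides.

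Of 5 genes of proteins that work with EpCAM, 3 were higher in luminal controls and 0 lower, beside 16.3% and 16.8% of all tested genes. They were Spint1 (log2 fold 2.37, SE 0.39), the protease matriptase St14 (1.77, SE 0.23), which cuts EpCAM, and Spint2 (0.62, SE 0.16), an inhibitor of that protease. The Spint2 call was lost without basal control replicate 1 (adjusted p = 0.054) or luminal control replicate 1 (0.0586), and with only the groups compared (0.0501). The replicate block added Cd44 as lower.

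Among 21 transcription and splicing factors known to switch epithelial junction genes, 7 of 14 activators were higher in luminal controls and 1 of 7 repressors was lower, where 16.3% of all tested genes were called higher and 16.8% lower. The repressor count is thus near the background. With the replicate block, which called 43.8% of all genes, 9 activators were higher and 2 (Grhl3 and Klf5) lower. Twist1 then joined Snai2 among the lower repressors. Elf5 had a log2 fold of 5.04 (SE 0.54), Ehf of 2.86 (SE 0.67) and Elf3 of 1.82 (SE 0.23), all of them Ets factors of epithelia. Elf5 is also in the list of luminal markers on which the cell types were checked. The splicing factor Esrp2 (1.8, SE 0.42) and the Grainyhead-like factor Grhl1 (1.799, SE 0.32) were also higher, whereas Grhl2, a known activator of claudin genes, was not called (-0.21, SE 0.26, adjusted p = 0.572). Without basal control replicate 3 the log2 folds were 4.39 for Ehf, 5.68 for Elf5 and 2.61 for Esrp2. Snai2, the Slug repressor, averaged 110 ± 26.0 CPM in basal controls and 1.35 ± 0.66 CPM in luminal ones (log2 fold -6.34, SE 0.58, adjusted p = 1.67e-05), and Zeb1, Zeb2, Twist1, Twist2, Snai1 and Snai3 were not called without the block.

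The genes whose level profiles were most like those of the members were sought among 12065 others by Pearson's r of log2 CPM over the 12 libraries. These libraries fall into a luminal and a basal cluster, so a high r mainly says that a gene has the same division between the layers. Ocln was most like Llgl2 (r = 0.996) and Crb3 (0.988), Marveld2 most like Crb3 (0.990), Cldn7 most like Llgl2 (0.988) and Cldn3 most like Bik (0.994) and Asl (0.992). Cldn4 was most like Mboat1 (0.983) and Esrp2 (0.982), Cldn1 like Liph (0.962) and Epcam like Tec (0.973) and Ceacam1 (0.966). Tjp1 and F11r had lower best values, 0.855 with Pias1 and 0.921 with Samd4b.

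The same division was then read between the knockout-labelled libraries. There 5 of the 9 genes were called higher in luminal cells, where 19.2% of all tested genes were called higher and 40.6% in either direction, and the median log2 fold of the 9 was 2.18 beside 0.03 over all tested genes. The 5 were Cldn3 (log2 fold 3.96, SE 0.29, adjusted p = 4.78e-06), Cldn7 (3.76, SE 0.63), Cldn4 (3.35, SE 0.69), Ocln (2.37, SE 0.41) and Marveld2 (2.18, SE 0.32). Without basal knockout-labelled replicate 1 the Cldn7 log2 fold was 4.46. F11r (-0.19, SE 0.24, adjusted p = 0.566) and Tjp1 (0.02, SE 0.20, adjusted p = 0.949) were again not called.

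The remaining members of the luminal group, Cldn1 and Epcam, were not called there. Cldn1 stood at 206, 103 and 144 CPM in basal and at 218, 180.2 and 497 CPM in luminal knockout-labelled libraries, and these ranges overlapped (log2 fold 0.98, SE 0.71, adjusted p = 0.295). Epcam stood at 1023, 496 and 1096 CPM in basal and at 1573, 1218 and 1808 CPM in luminal knockout-labelled libraries, with no overlap (log2 fold 0.81, SE 0.32, adjusted p = 0.0594). Epcam was called in 5 of the other settings tried, among them DESeq2 (adjusted p = 0.0345), which called 43.5% of all genes, and a replicate block (log2 fold 0.87, adjusted p = 0.00419), which called 51.2%. The replicate numbers were not taken to pair the knockout-labelled groups. Same-numbered libraries of these groups did deviate together more than different-numbered ones, as given with the processing below. Whether a fold differed between the genotypes was tested by the interaction given below, and it was called for no member.

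Of the other tight junction genes 13 were higher and 11 lower in luminal knockout-labelled libraries, where 19.2% of all tested genes were called higher and 21.4% lower. Igsf5 (log2 fold 4.92, SE 0.42), Tjp3 (3.86, SE 0.53), Cgn (3.78, SE 0.64) and Cldn6 (3.63, SE 0.49) were among the higher ones. The lower ones were led by Ildr2 (-4.22, SE 0.66), a relative of Ildr1, Magi2 (-3.52, SE 0.32), Jam2 (-3.43, SE 0.36) and Mpdz (-3.33, SE 0.34). Of the repressors of epithelial junction genes 6 of 7 were lower in luminal cells here, where 21.4% of all tested genes were called lower, among them Snai2 (-4.23, SE 0.51), Zeb2 (-4.19, SE 0.74), Twist1 (-4.17, SE 0.65) and Zeb1 (-2.51, SE 0.77). The Snai2 fold was -5.04 without luminal knockout-labelled replicate 3 and the Zeb2 fold -4.81 without luminal knockout-labelled replicate 2. The Zeb1 call was lost without basal replicate 2 (adjusted p = 0.0572) or luminal replicate 1 (0.0562), 2 (0.076) or 3 (0.0563) of these libraries. Of the activators 5 of 14 were higher and 1 lower. The summed list of 10 fibroblast markers was 1830 to 2977 CPM in the basal knockout-labelled libraries and 133 to 382 CPM in the luminal ones, and the part of fibroblast RNA in these lower values was not tested.

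Between knockout-labelled and control basal cells no member was called, where 0.671% of all tested genes were called. At an unadjusted p under 0.05 there was 1 member, and DESeq2 and limma-voom also called 0. The log2 folds of all 9 genes were above 0, with a median of 0.54 beside -0.01 over all tested genes; for Cldn7 and Tjp1 the fold turned to -0.01 and -0.03 with library size alone as the scaling. Cldn3 stood at 24.8, 14.6 and 15.1 CPM in knockout-labelled replicates 1, 2 and 3, all above the 7.57 to 11.3 CPM of the controls (log2 fold 0.93, SE 0.27, adjusted p = 0.186). Cldn1 at 206, 103 and 144 CPM was also above its controls, though the lowest value lay close to the highest control value of 102 CPM (log2 fold 1.41, SE 0.72, adjusted p = 0.648). These were the 2 members of 9 whose groups did not overlap, higher in both cases, which held for 8.15% of all tested genes.

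The other members overlapped between the basal groups. Cldn4 was at 408, 247 and 274 CPM in the knockout-labelled libraries (log2 fold 0.54, 95% interval -0.84 to 1.93), and these 3 values lay inside the wide control range of 40.7 to 439 CPM. Cldn7 was at 35.8, 8.96 and 16.1 CPM (0.12, interval -1.14 to 1.38), Ocln at 33.7, 18.6 and 28.0 CPM (0.56, interval -0.31 to 1.44) and Marveld2 at 25.4, 12.7 and 21.9 CPM (0.67, interval -0.03 to 1.37). F11r at 401, 228 and 441 CPM (0.16, interval -0.37 to 0.70), Tjp1 at 217, 201 and 289.6 CPM (0.06, interval -0.38 to 0.50) and Epcam at 1023, 496 and 1096 CPM (0.47, interval -0.22 to 1.16) had the narrowest intervals together with Cldn3. Of the 9 intervals only those of F11r and Tjp1 exclude a change of 1 log2 unit upward. Without basal control replicate 3 the log2 folds were 2.15 for Cldn1 (adjusted p = 0.285), 1.65 for Cldn4 (0.231), 1.21 for Ocln (0.134) and 1.14 for Cldn7 (0.375), each moved by more than 1.5-fold and none called. The summed luminal marker list was 1297 to 1866 CPM in the basal knockout-labelled libraries against 803 to 1144 CPM in the controls, with 1 of 16 markers called higher, and its part in the member values was not tested.

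Of the 41 other tight junction genes 1 was called in basal cells, beside 0.671% of all tested genes. Cldn8, a claudin that in the kidney keeps junctions tight to cations, stood at 1.76, 1.34 and 0.74 CPM in basal controls and reached 7.70, 12.7 and 7.82 CPM in the libraries labelled as knockouts. The groups were well apart, though the control values rest on 8 to 17 counts. Cldn8 was thus called higher in the knockout-labelled basal libraries (log2 fold 2.88, SE 0.50, adjusted p = 0.0297). The call was lost without any 1 of the 6 basal libraries, with adjusted p-values of 0.0555 to 0.14, and with library size alone (0.0539) or limma-voom (0.115). The summed list of 10 fibroblast markers was 498 to 671 CPM in the controls and 1830 to 2977 CPM in the knockout-labelled libraries. Of these markers 9 were higher without overlap with the controls, beside 8.15% of all tested genes, and 2 were called higher. No marker of that list was at 0 in a whole group, and its part in the Cldn8 value was not tested. Cldn8 averaged 26.7 CPM in luminal controls and 69.7 CPM in luminal knockout-labelled libraries. The summed luminal marker list was 803 to 1144 CPM in basal controls and 1297 to 1866 CPM in basal knockout-labelled libraries. The part of luminal RNA in the basal Cldn8 values was not tested either.

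Between knockout-labelled and control luminal cells no member was called either, where 3.03% of all tested genes were called. No member had an unadjusted p under 0.05, and DESeq2 and limma-voom also called 0. Cldn4 stood at 2371, 3074 and 4054 CPM in the knockout-labelled libraries against 2071, 1340.5 and 3077 CPM in the controls (log2 fold 0.55, SE 0.63, adjusted p = 0.718), and the ranges overlapped. Cldn1 stood at 218, 180.2 and 497 CPM against 267, 188 and 963 CPM (-0.67, SE 0.70, adjusted p = 0.69). Each replicate of Cldn4 was higher and each of Cldn1 lower than the control of the same number.

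The other 7 members lay closer to their luminal controls. Cldn3 was at 237, 311 and 301 CPM in the knockout-labelled libraries (log2 fold -0.20, 95% interval -0.76 to 0.36), Cldn7 at 255, 229.9 and 338 CPM (-0.09, interval -1.31 to 1.13) and Ocln at 145, 103 and 168 CPM (0.02, interval -0.82 to 0.87). Marveld2 was at 96.6, 66.0 and 109 CPM (-0.19, interval -0.87 to 0.48), F11r at 293, 289.4 and 357 CPM (0.09, interval -0.44 to 0.63), Tjp1 at 236, 188 and 293 CPM (-0.01, interval -0.45 to 0.43) and Epcam at 1573, 1218 and 1808 CPM (-0.18, interval -0.87 to 0.50). The median over the 9 genes was -0.09, beside -0.03 over all tested genes, and the signs of the Ocln and Tjp1 folds changed with the scaling. For Cldn3, Ocln, Marveld2, F11r, Tjp1 and Epcam the intervals exclude a change of 1 log2 unit in either direction, and those of Cldn1, Cldn4 and Cldn7 do not. The Cldn1 fold was 0.41 without control replicate 3 and -1.25 without knockout-labelled replicate 3.

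Among the 41 other tight junction genes 3 were called in luminal cells, beside 3.03% of all tested genes. Pard6g, the Par6 adaptor that was higher in basal cells, rose from 7.49, 12.8 and 9.75 CPM to 14.5, 31.4 and 34.1 CPM (log2 fold 1.42, SE 0.30, adjusted p = 0.0278). Amotl1, an angiomotin-like scaffold, fell from 134, 147 and 179 CPM to 89.5, 86.8 and 74.3 CPM (-0.88, SE 0.18, adjusted p = 0.0246). Jam2, an adhesion receptor that endothelium also makes, fell from 3.84, 6.47 and 10.4 CPM to 1.70, 3.13 and 2.74 CPM (-1.44, SE 0.35, adjusted p = 0.0494).

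The summed list of 12 basal markers was 207 to 814 CPM in luminal controls and 413 to 1094 CPM in luminal knockout-labelled libraries, with 1 of 12, Trp63, called higher (log2 fold 2.80, adjusted p = 0.0253), a median log2 fold of -0.28 and no marker at 0 in a whole group. Its part in the Pard6g value was not tested.

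The knockout-labelled and control luminal ranges did not overlap for any of these 3 genes. They were among 7 higher and 9 lower genes of the 41 with no overlap, counts whose share over all genes was not worked out. Each of the 3 calls was lost in at least 5 of the 6 fits without 1 luminal library. The adjusted p of Amotl1 was then 0.0569 to 0.11 in all 6, that of Jam2 was 0.0974 to 0.132 without any library other than control replicate 1, and that of Pard6g was 0.0544 to 0.114 without any other than knockout-labelled replicate 1. With only the groups compared none of the 3 was called (0.0574 for Amotl1, 0.107 for Pard6g, 0.152 for Jam2), and limma-voom lost Pard6g (0.0542) and Jam2 (0.101). Jam2 was also lost with RLE scaling (0.0521), library size alone (0.0603) and no filter (0.0523). The summed list of 8 endothelial markers was 97.8 to 168 CPM in luminal controls and 69.1 to 84.7 CPM in the knockout-labelled libraries, with 0 of 8 called, a median log2 fold of -1.29 and no marker at 0 in a whole group. Its part in the Jam2 value was not tested. Luminal libraries of the same number deviated together, and with replicate number as a block 8 of the 41 genes were called, 2 higher and 6 lower, where the block called 7.36% of all genes. Besides those named these were Cldn8 (log2 fold 1.36, adjusted p = 0.0096), Pard3b (-1.15, adjusted p = 0.0156), Mpdz (-1.03, adjusted p = 0.0213), Esam (-1.13, adjusted p = 0.0217) and Pard6b (-0.87, adjusted p = 0.0349). The block left the count of members called at 0.

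**Figure D5:**
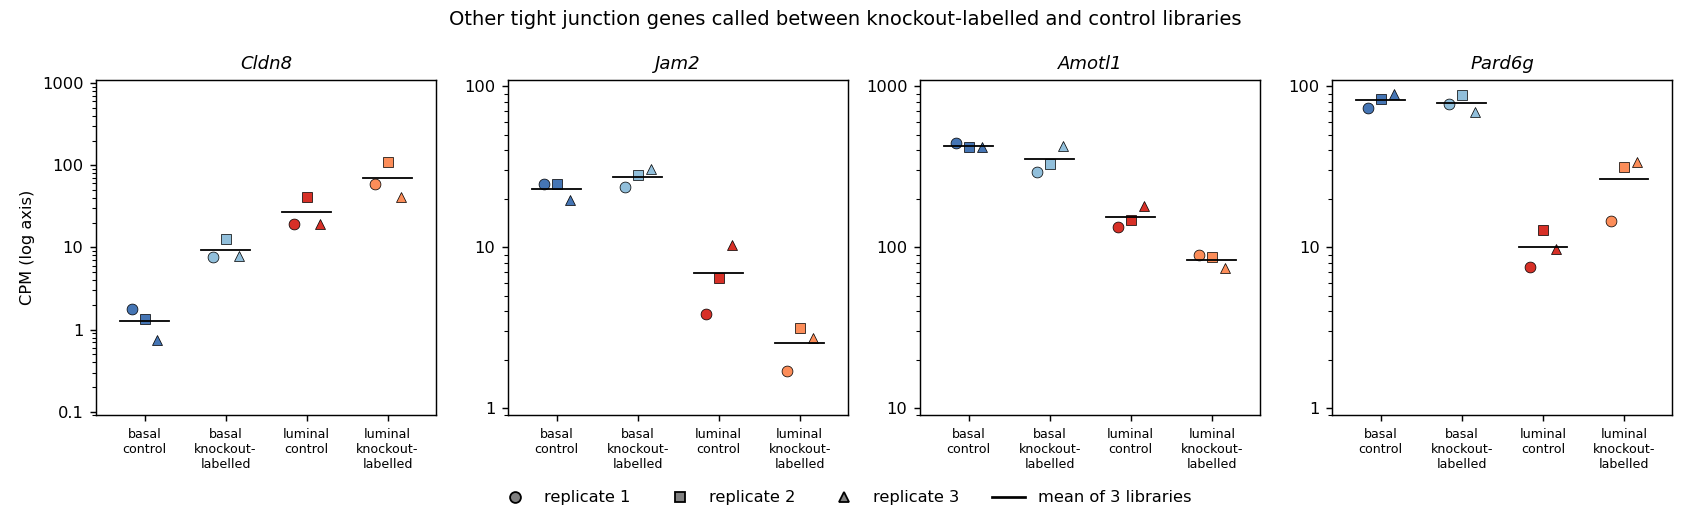
CPM in each library (log axes) of the 4 other tight junction genes called between knockout-labelled and control libraries, with symbols for replicate number and bars for means of 3 libraries. Cldn8 lies between 0.74 and 1.76 CPM in basal controls and between 7.70 and 12.7 CPM in basal knockout-labelled libraries, and Jam2, Amotl1 and Pard6g are apart in the luminal groups.

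The difference between the luminal and the basal genotype effects was tested as an interaction, which was called for 0 of the 9 members and 0.275% of all tested genes. Cldn3 was the 1 member with an unadjusted p under 0.05 (log2 difference -1.13, SE 0.37, adjusted p = 0.283), and Cldn1 had the largest difference (-2.08, SE 1.01, adjusted p = 0.539), which was -0.99 without luminal control replicate 3, -2.67 without luminal knockout-labelled replicate 3 and -2.82 without basal control replicate 3. For both, the effect was lower in luminal than in basal cells. DESeq2 and limma-voom called 0 members as well. None of the 41 other tight junction genes was called. At an unadjusted p under 0.05 there were 9, a count whose share over all genes was not worked out. The lowest p-values were those of Pard6b (-1.38, SE 0.36, adjusted p = 0.152), Jam2 (-1.69, SE 0.47, adjusted p = 0.176) and Pard6g (1.48, SE 0.41, adjusted p = 0.177). DESeq2 called these 3 and Cldn10 (-1.83, adjusted p = 0.0399), so that 4 genes passed there, where DESeq2 called 2.39% of all genes.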

How the data were processed

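The authors deposited whole-number counts of reads per Entrez gene, not normalized, with gene lengths. The submitters' processing notes name mm10, featureCounts and CASAVA 1.8.2, and RNeasy extraction is, like the TruSeq RNA v2 kit, in the labels' protocols; the aligner is not given in the sources used here. Tests on these counts used edgeR 4.0.16 under R 4.3.3 (quasi-likelihood F test, robust, TMM factors, default filter by group), with 12 libraries, 4 group means, 8 residual degrees of freedom and Benjamini-Hochberg adjustment over 14903 genes, called at 0.05. The biological coefficient of variation was 32.6%. A standard error is the log2 fold over the root of F. The step was tested on simulated data. Likeness used log2 CPM with a prior count of 2.

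The members and lists were chosen with earlier results of these data known. All members are given; 2 genes of the other lists are not reported here. Of other tight junction genes up to 8 called ones with the largest folds are named per comparison, or up to 3 with the lowest p, and of regulators and EpCAM partners up to 6; Cldn12, Ildr1, Jam3, Pard6b, Crb3, Grhl2 and those called with the block or DESeq2 were named after their values were seen. Promoter windows were searched over 250 bases before the start rather than the 300 of the plan. Promoters and positions come from RefSeq on GRCm38.p6, the mm10 assembly.

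Replicate numbers are shared between groups. Correlations of same-numbered deviations from the group means were 0.36, 0.30 and 0.53 for luminal knockout-labelled and control libraries and 0.31, 0.42 and 0.47 for basal and luminal controls, so the numbers were taken to pair those libraries. They were -0.087, 0.36 and 0.13 for the basal groups, where different numbers reached 0.22, and these groups were not taken as paired. Between the knockout-labelled groups they were 0.087, 0.42 and 0.42, each above the values for different numbers there (at most 0.017). The measure that was used to pair the controls would thus pair these groups too, with the lowest value at number 1. They were nevertheless left unpaired here, and whether the numbers pair them was not tested further. The main fit used no pairing. The replicate block was applied to every comparison, including those not taken as paired. No replicates agreed within sampling noise. The settings tried beside these were DESeq2 1.42.0, limma-voom (limma 3.58.1), other scalings and filters, only the groups compared, the block and leaving out each library.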

Additional observations from a re-analysis of the deposited data

How the results depend on the processing

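The 7 members higher in luminal controls were called in all 16 alternatives, and no member was called between genotypes or in the interaction in any. In the knockout-labelled libraries 5 or 6 members were called, with Epcam added under library size alone (adjusted p = 0.0124), upper-quartile scaling (0.0398), DESeq2 (0.0345), limma-voom (0.0426) and the replicate block (0.00419). Library size alone moved the median log2 fold of all genes there from 0.03 to 0.15.

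For the other tight junction genes, the basal genotype count of 1 became 0 with library size alone and limma-voom, 2 with DESeq2 and with the replicate block (Ildr2 added, log2 fold 2.34, adjusted p = 0.0388), and 0 without any 1 library. The basal numbers were not taken as paired. Between the basal groups DESeq2 called 2.8% of all genes and the block 1.58%. The luminal count of 3 became 7 with DESeq2, 1 with limma-voom, 0 with only the groups compared, 8 with the replicate block and 0 to 1 without 1 library. Between the luminal groups DESeq2 called 7.31% of all genes and the block 7.36%. The interaction count of 0 became 4 with DESeq2 and 0 to 1 without 1 library. The block changed no other call of a member.

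Some members changed sign, none of them called; most had a fold near 0 with all libraries, and Cldn1 between luminal genotypes (-0.67) did not. Between knockout-labelled layers Tjp1 gave -0.00265 (RLE), -0.00235 (DESeq2) and -0.018 (only the groups compared), and between luminal genotypes 0.0054 (RLE), 0.0085 (salivary genes removed), 0.014 (no filter), 0.0056 (DESeq2) and 0.0019 (only the groups compared). Library size alone gave -0.015 for Cldn7 and -0.029 for Tjp1 between basal genotypes, and 0.046 for F11r and 0.013 for Tjp1 in the interaction. Upper-quartile scaling gave -0.011 for Ocln between luminal genotypes and -0.025 for Cldn4 in the interaction, where Cldn4 was -0.51 with limma-voom and -0.27 with the replicate block. Leaving out 1 library gave these ranges: between control layers -0.25 to 0.041 for F11r and -0.031 to 0.12 for Tjp1; between knockout-labelled layers -0.15 to 0.18 for Tjp1. Between basal genotypes they were -0.61 to 1.14 for Cldn7, -0.12 to 0.16 for Tjp1 and -0.018 to 0.40 for F11r. Between luminal genotypes they were -1.25 to 0.41 for Cldn1, -0.31 to 0.051 for Cldn3, -0.27 to 0.033 for Cldn7, -0.15 to 0.31 for Ocln, -0.36 to 0.018 for Marveld2, -0.065 to 0.21 for F11r, -0.18 to 0.14 for Tjp1 and -0.36 to 0.0030 for Epcam. In the interaction they were -1.10 to 0.49 for Cldn4, -1.24 to 0.52 for Cldn7, -0.31 to 0.12 for F11r and -0.24 to 0.12 for Tjp1. The cause of these shifts was not tested. Low counts (1 to 17 a library in basal controls) limit Cldn2, Cldn6, Cldn8, Cldn22 and Igsf5, and 3 libraries a group limit every comparison.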

Other observations

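Genes that vary with a member inside the groups were read from deviations of log2 CPM from the group means over the 12 libraries, which share 3 replicate numbers. Cldn4 was most like Krt6a (Pearson's r = 0.982), a keratin of stressed epidermis, and Ly6d (0.975), Cldn1 most like Liph (0.983) and Ocln most like Npepps (0.984). Cldn3 was the exception, with its best values at Psmb10 (0.909) and Psme2 (0.883), which belong to the immunoproteasome and its activator. These are descriptions of 12 libraries chosen as the best of 12065 genes, with no test.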
